A study of Mus musculus with 9 samples.

Results

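The genes described are the mouse Wnt, FGF and BMP pathway genes of 1 microarray series: every probe set whose single gene symbol starts with Wnt, Fzd, Sfrp, Dkk, Bmp, Acvr or Fgf followed by a digit, or equals Fgfr1, Fgfr2 or Fgfr3. The rule uses the symbols only. It found 160 of the 45037 probe sets, which stand for 80 of the 18193 genes with a symbol of their own: 19 Wnt, 11 Fzd, 4 Sfrp, 4 Dkk, 11 Bmp, 5 Acvr, 23 Fgf and 3 Fgfr genes. Not every name gives the function: Bmp1 encodes a metalloprotease that processes procollagen, Bmp2k a kinase, and Fgf2os and Fzd10os transcripts opposite to their namesake genes. The study compared RNA of 3 forebrain regions. The BNST, the bed nucleus of the stria terminalis, belongs to the extended amygdala and is known for its role in anxiety and stress, while the NAc, or nucleus accumbens, and the dStr, or dorsal striatum, are the ventral and dorsal divisions of the striatum. There were 3 samples per region, labelled as biological replicates and read on 1 Affymetrix Mouse430_2 array each, so the number of arrays limits the precision. The mice are described only as mice, with no strain, sex, age, allele or drug named, all were anesthetized with isoflurane before the brain was removed, and the samples are punches of semi-frozen coronal slices 300 µm thick. The labels do not say whether the samples came from separate animals, so the p-values measure the spread between these samples, which may in part be technical.

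Wnt, FGF and BMP proteins are secreted signals that pattern the embryonic brain and continue to act on synapses, glia and stem cells later in life. Wnt ligands bind Frizzled (Fzd) receptors together with Lrp5 or Lrp6, and Sfrp and Dkk proteins hold them back from outside the cell. Most FGFs bind the receptor tyrosine kinases Fgfr1 to Fgfr3 with heparan sulfate as a partner, while Fgf11 to Fgf14 stay inside the cell and bind voltage-gated sodium channels. BMPs and activins bind pairs of type I and type II receptor kinases, the Acvr genes among them, which phosphorylate Smad proteins.

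Of the 80 genes, 60 had a probe set bright enough to test, meaning that it exceeded the 40th percentile of all probe sets on 3 or more of the 9 arrays. These 60 were tested among 14208 genes on log2(value + 16) with limma, with p-values adjusted by Benjamini-Hochberg over all 14208 genes and a threshold of 0.05. Every fold below is on that scale, which understates the change of dim genes, and differences are the first region minus the second. Intensities of different probe sets are not comparable, so no gene is set against another by its level.

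In BNST against NAc, 0 member genes were higher and 2 lower, Fgf11 and Wnt2, which is 3.33% of those tested beside 2.24% of all genes (1.48% lower). In BNST against dStr, 1 was higher, Fgf1, and 9 were lower, Acvr1, Acvr1c, Bmp2, Fgf9, Fgf11, Fgf13, Fgf14, Fgf20 and Wnt2, together 16.7% beside 14.3% of all genes (4.94% higher and 9.33% lower). In NAc against dStr, 0 were higher and 3 lower, Acvr1, Acvr1c and Fgf20, which is 5% beside 2.05% of all genes (0.95% higher and 1.1% lower). The F test over the 3 regions called 8 genes, 13.3% beside 10.3%: Acvr1, Acvr1c, Bmp2, Fgf11, Fgf14, Fgf20, Fzd8 and Wnt2. These shares are near the background between BNST and dStr and in the F test, and in the other comparisons they rest on 2 and 3 genes.

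The comparisons share arrays and are not independent of each other. An unadjusted p under 0.05 was reached by 8, 18 and 9 members in the 3 comparisons taken in the same order. These counts have no share of all genes beside them and are not read as an excess. The arrays of the regions did not overlap for 8 members between BNST and NAc (13.3% beside 14.6% of all genes), for 25 between BNST and dStr (41.7% beside 36.4%) and for 12 between NAc and dStr (20% beside 19.1%). The median difference of the members was −0.02, −0.14 and −0.07 on the log2 scale, against −0.05, −0.06 and −0.01 for all genes. When each array was quantile normalised instead, 3 members were higher and 8 lower in BNST than in dStr, with Fgf12 and Fzd1 joining the higher ones and Fgf9 leaving the lower ones. The share of all genes under that setting is not given here, so the shift is not read as particular to the members.

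**Figure D1:**
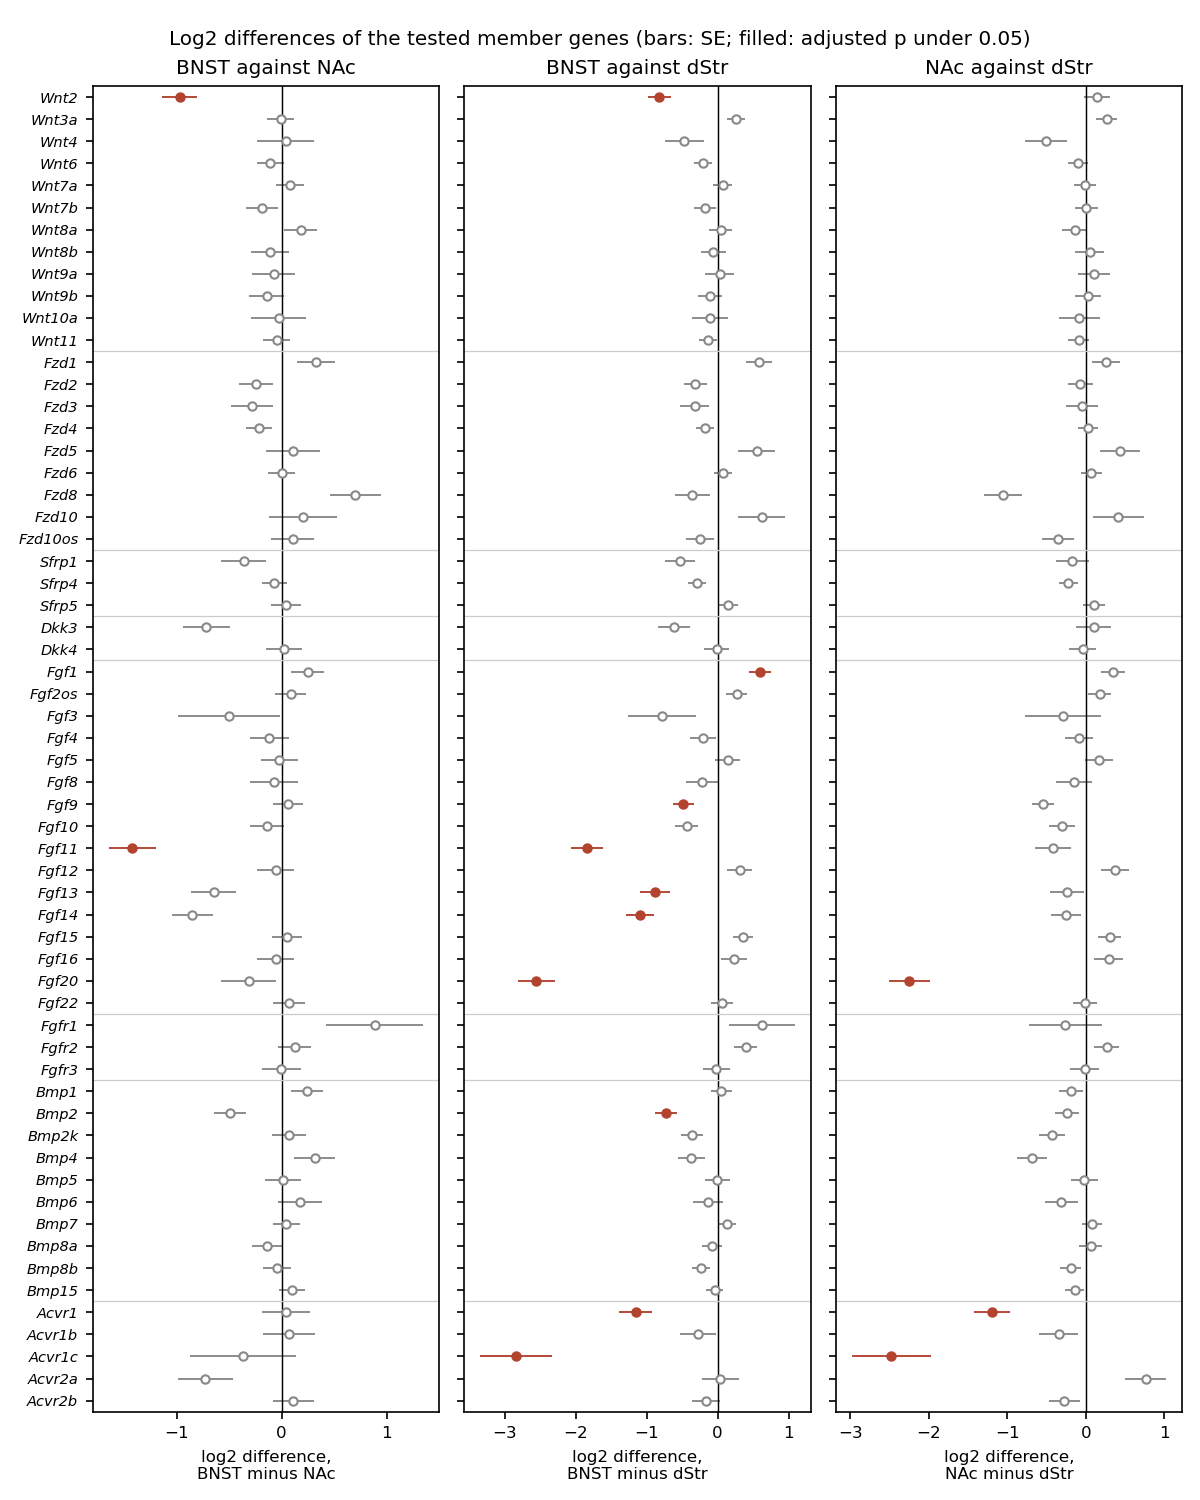
Log2 differences of the 60 tested member genes, BNST minus NAc, BNST minus dStr and NAc minus dStr, with their standard errors as bars and filled points where the adjusted p was under 0.05. Most genes lie near 0 in all 3 panels, and the filled points lie left of 0 except for Fgf1 in the middle panel.

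The arrays are described here once. Array medians lay between 93.9 and 102, and between 2270 and 2698 probe sets per array stood at the lowest value of 15. Across the tested genes, BNST 1 correlated with NAc 3 at 0.965 and with NAc 2 at 0.953, but with BNST 2 and BNST 3 at 0.934 and 0.948, and NAc 1 correlated with NAc 3 at 0.909. When every one of the 29293 probe sets above the filter was tested in place of 1 per gene, 3 of the 93 member probe sets passed in BNST against NAc (1.81% of all), 14 in BNST against dStr (13.6% of all) and 4 in NAc against dStr (1.68% of all). Without BNST 1 and NAc 1, 5, 16 and 6 member genes passed in the 3 comparisons, beside 15.5%, 29.2% and 4.98% of all genes, and all the members named above were among them.

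The labels were set against marker genes of the cells a punch could hold. Summed intensities of 8 tested markers of striatal projection neurons, such as Drd1 and Penk, ran from 3196 to 7425 in BNST, 13187 to 18369 in NAc and 23266 to 25664 in dStr. All 8 were lower in BNST than in dStr, 5 lower in BNST than in NAc, and 2 lower in NAc than in dStr. Summed BNST neuropeptide markers ran from 2566 to 3374 in BNST, 790 to 2061 in NAc and 439.7 to 758 in dStr, with 2 of 4 higher in BNST than in NAc, 3 higher in BNST than in dStr and 2 higher in NAc than in dStr.

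Of 7 astrocyte markers, 2 were higher in BNST than in NAc and 4 higher in BNST than in dStr, with sums of 7219 to 9365 in BNST, 4759 to 5945 in NAc and 4459 to 5274 in dStr. Of 8 tested ependymal and choroid plexus markers, 5 were higher in BNST than in either other region, with sums of 1917 to 3649 in BNST, 823 to 913 in NAc and 813 to 888 in dStr, and Otx2 stood at the lowest value on every NAc and dStr array. Of 5 tested thalamus and habenula markers, 3 were higher in BNST than in either, with sums of 1806 to 2716 in BNST, 726 to 909 in NAc and 707 to 836 in dStr. Of 5 microglial markers, 3 were lower in BNST than in dStr, with sums of 1076 to 1537 in BNST, 1555 to 1809 in NAc and 2018 to 2226 in dStr.

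No leptomeningeal, oligodendrocyte, oligodendrocyte precursor or endothelial marker passed, and none of the 4 cortical markers could be tested. In bulk punches, fewer cells of a type and less RNA per cell cannot be told apart. In BNST against dStr, marker lists were called in both directions, so any gene called higher or lower shares its direction with some of them. The called markers of projection neurons and microglia were lower there, as were the 9 lower members. Those of astrocytes, ependyma and choroid plexus, thalamus and habenula, and BNST neuropeptides were higher, as was Fgf1. In BNST against NAc, Acvr1, Fgf9 and Fgf20 did not pass, with differences of 0.04, 0.06 and −0.31 on the log2 scale. The part of these cells in the results was not tested.

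Fgf20, a secreted FGF known for its support of midbrain dopamine neurons, stood out in dStr. Its intensity was 68.7, 30.1 and 50.5 on the BNST arrays, 43.7, 73.7 and 77.0 on the NAc arrays and 296, 329.5 and 479 on the dStr arrays. Every dStr array lay above every other array, while BNST and NAc overlapped. The mean was 49.8 ± 19.3 in BNST, 64.8 ± 18.3 in NAc and 368 ± 97.3 in dStr (SD, n = 3 each).

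Fgf20 was lower by 2.56 (SE 0.26) on the log2 scale in BNST than in dStr, a 5.90-fold difference (limma adjusted p = 0.000196). In NAc against dStr the difference was −2.25 (SE 0.26), 4.75-fold (adjusted p = 0.00216), and in BNST against NAc it was −0.31 (adjusted p = 0.735). Both calls were kept under all 21 alternative settings in which the gene was fitted again at the same threshold. On the BNST arrays none, and on the NAc arrays 1, exceeded the array's 40th percentile, so the gene entered the test through dStr, where it was bright.

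Acvr1 and Acvr1c were the other 2 members called lower in both BNST and NAc than in dStr, beside 1.05% of all genes with that pattern. Fgf11 and Wnt2 were lower in BNST than in both other regions, a pattern held by 1.32% of all genes. No member was higher in BNST than in both, and none was highest or lowest in NAc by the tests.

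**Figure D2:**
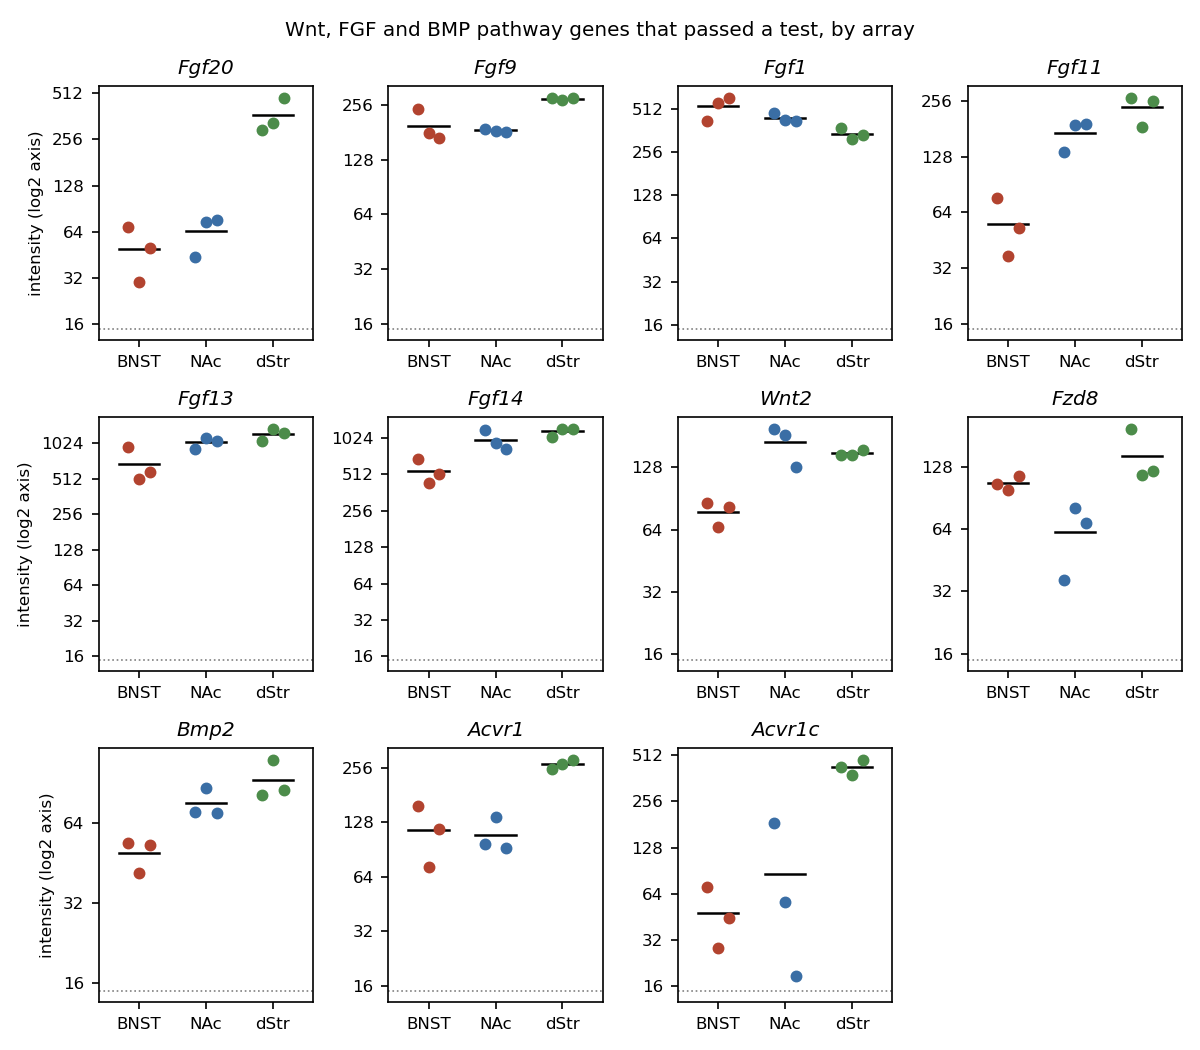
Intensity on a log2 axis of the 11 member genes that passed in a comparison or in the F test, with 1 point per array, lines at the mean of 3 arrays per region and a dotted line at the lowest value of 15. Fgf20, Fgf9, Fzd8, Acvr1 and Acvr1c have all 3 dStr arrays above the other 6. Fgf11, Fgf14, Wnt2 and Bmp2 have all 3 BNST arrays below the other 6.

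The intracellular FGFs, which set the availability of sodium channels near the axon's start, made up 3 of the 9 lower calls in BNST against dStr. Fgf14, the gene mutated in an inherited ataxia in humans, had intensities of 683, 432 and 513 in BNST, 1200.4, 934 and 823 in NAc and 1045, 1218 and 1222 in dStr. Every BNST array lay below all NAc and dStr arrays, and NAc and dStr overlapped. The difference was −1.10 (SE 0.19) in BNST against dStr, 2.14-fold (limma adjusted p = 0.00405), and −0.85 (SE 0.19) in BNST against NAc, which missed the threshold (adjusted p = 0.0527).

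The probe sets of Fgf14 pointed the same way. All 3 that passed the filter were lower in BNST than in dStr when every probe set was tested, with differences of −1.10, −1.14 and −1.44 on the log2 scale (limma adjusted p = 0.00495, 0.0102 and 0.00903). The call was kept under all 21 alternatives.

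Fgf11 had intensities of 77.1, 37.4 and 52.7 in BNST, 136, 189.9 and 193 in NAc and 268, 186 and 257 in dStr. The BNST arrays were again the lowest, and NAc and dStr overlapped. It was lower in BNST than in NAc by 1.42 (SE 0.22), 2.68-fold (limma adjusted p = 0.0106), and lower in BNST than in dStr by 1.84 (SE 0.22), 3.58-fold (adjusted p = 0.000517). The call against NAc was lost without BNST 3 (adjusted p = 0.0579) and without NAc 2 (0.0618).

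The other probe set of Fgf11 ran the opposite way. It read 66.4, 221 and 174 in BNST, 122, 96.3 and 73.2 in NAc and 87.0, 84.8 and 40 in dStr, with a difference of 0.89 (SE 0.38) in BNST against dStr that did not pass (limma adjusted p = 0.153). With the mean of the gene's probe sets, neither Fgf11 call passed (adjusted p = 0.168 against NAc and 0.0621 against dStr). The direction of Fgf11 rests on 1 of its 2 probe sets.

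Fgf13 had intensities of 945, 509 and 586 in BNST, 911, 1142 and 1072 in NAc and 1068, 1367 and 1264 in dStr. BNST 1 reached the NAc range, and all BNST arrays lay below all dStr arrays. The difference in BNST against dStr was −0.89 (SE 0.22), 1.85-fold (limma adjusted p = 0.0207). It was lost without BNST 2 (0.0835), BNST 3 (0.0918), dStr 2 (0.0755) or dStr 3 (0.0749).

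Fgf12, the remaining gene of this subfamily, read 462, 349.6 and 366 in BNST, 312, 453 and 473 in NAc and 300.2, 292 and 342 in dStr. BNST lay above dStr without overlap, but the difference of 0.31 did not pass (limma adjusted p = 0.284).

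The promoters of Fgf11 and Fgf14 are shown because both genes were called lower in BNST than in dStr, Fgf11 on 1 of its 2 probe sets. Promoters come from RefSeq (GRCm38.p6), run from 250 bases before to 50 bases after a gene's start and are written 5′ to 3′ on the gene's strand. Capitals mark matches on either strand to 5 motifs searched: the TCF/LEF core of Wnt target genes (CTTTGAT or CTTTGAA), the cyclic AMP response element (TGACGTCA), the TATA box (TATAAA), the EGR site (GCGTGGGCG) and the GC box (GGGCGG), which an EGR site can overlap at its end. The Fgf11 promoter lies at chr11:69802231-69802530 and the Fgf14 promoter at chr14:124192497-124192796, both on the minus strand.
Fgf11: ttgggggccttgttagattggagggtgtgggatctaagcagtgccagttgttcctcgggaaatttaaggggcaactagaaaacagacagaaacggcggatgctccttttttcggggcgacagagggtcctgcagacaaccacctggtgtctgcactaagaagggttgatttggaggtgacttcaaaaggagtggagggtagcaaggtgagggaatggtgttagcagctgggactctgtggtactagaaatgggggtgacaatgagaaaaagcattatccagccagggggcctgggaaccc
Fgf14: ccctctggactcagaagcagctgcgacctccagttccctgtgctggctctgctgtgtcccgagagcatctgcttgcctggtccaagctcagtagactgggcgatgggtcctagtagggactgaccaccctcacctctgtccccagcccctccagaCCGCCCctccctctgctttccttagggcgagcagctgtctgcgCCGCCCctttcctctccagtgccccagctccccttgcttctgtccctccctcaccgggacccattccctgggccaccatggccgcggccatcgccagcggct
The Fgf11 window held none of the 5 motifs and the Fgf14 window held 2 GC boxes. They also differed in base composition, with 5 CpG dinucleotides and 52.3% G or C in Fgf11 and 12 CpG dinucleotides and 65.7% in Fgf14.

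Promoters were found for 57 of the 80 genes, 68 in all. Their median was 65.7% G or C with 23.5 CpG dinucleotides, against 52.7% and 7 over all 32851 promoters. The GC box was in 69.1% of the members' promoters and in 35.7% of all. The TCF/LEF core was in 10.3% and 8.65%, the TATA box in 11.8% and 13.6%, the EGR site in 1.47% and 0.612%, and the cyclic AMP response element in 0% and 1.79%. A match is a description of letters and not a bound site.

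Of the secreted FGFs, Fgf1, acidic FGF, was higher in BNST than in dStr, the only such call among the 60 tested genes. It read 424, 568 and 617 in BNST, 483, 427 and 423 in NAc and 377, 319 and 340.02 in dStr. BNST lay above dStr without overlap, and NAc overlapped BNST. The difference was 0.60 (SE 0.16), 1.51-fold (limma adjusted p = 0.0293), and it was lost without BNST 2 (0.106), BNST 3 (0.132), dStr 1 (0.0584), dStr 2 (0.0949) or dStr 3 (0.0949).

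The other probe set of Fgf1 read 173, 138 and 135 in BNST, 148, 132 and 145 in NAc and 168, 159 and 205 in dStr. Its difference in BNST against dStr was −0.23 and did not pass (limma adjusted p = 0.322), so the probe sets differ in sign. With their mean the call was lost (adjusted p = 0.293).

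Fgf9, of the same subfamily as Fgf20, read 243, 179 and 169 in BNST, 190.4, 186 and 182 in NAc and 282, 273 and 280.1 in dStr. All dStr arrays lay above the others, and BNST and NAc overlapped. The difference was −0.48 (SE 0.14) in BNST against dStr, with an adjusted p of 0.0497 in limma, just under the threshold, and −0.54 in NAc against dStr (adjusted p = 0.107). The call was lost under 15 of 21 alternatives, among them quantile normalisation (0.0861), leaving out any 1 array other than BNST 1 or NAc 1 (0.0590 to 0.196) and the mean of its 2 probe sets (0.306), of which the other read between 86.2 and 125 on all arrays. Fgf16, the third gene of that subfamily, read 69.0, 73.9 and 66.5 in BNST, 81.9, 53.3 and 88.7 in NAc and 45.2, 66.9 and 60.5 in dStr, and did not pass.

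The bright probe set of Fgf3 carries the suffix that marks possible cross-hybridisation, and its arrays scattered widely: 574, 270.3 and 249.6 in BNST, 278, 369.7 and 1100.3 in NAc and 806, 386 and 679 in dStr. No comparison passed. The other tested FGF genes, Fgf2os, Fgf4, Fgf5, Fgf8, Fgf10, Fgf15 and Fgf22, did not pass in any comparison, Fgf8 being the organiser of the midbrain boundary and Fgf15 an endocrine FGF. In all, 16 of 23 FGF genes were tested, and 6 of them (37.5%, beside 14.3% of all genes) were called between BNST and dStr. Of these 6, Fgf1, Fgf9 and Fgf11 lost the call with the mean of their probe sets.

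Of the FGF receptors, 0 of 3 were called in any comparison on the probe set that stands for the gene. Fgfr3 read 399, 311 and 287 in BNST, 255, 407 and 345 in NAc and 351, 305 and 346 in dStr. Fgfr2 read 338, 420.3 and 352 in BNST, 401, 309 and 307 in NAc and 318, 242 and 274 in dStr. BNST lay above dStr without overlap for Fgfr2 (difference 0.40, limma adjusted p = 0.13), and the regions overlapped for Fgfr3.

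Fgfr1 scattered on its bright probe set, with 485, 226 and 189 in BNST, 56.9, 195 and 240.00 in NAc and 226, 126 and 182 in dStr. Its other probe set was steadier, with 151, 131 and 139 in BNST, 103, 104 and 81.8 in NAc and 82.3, 99.8 and 98.7 in dStr. There all BNST arrays lay above all others, and the difference in BNST against dStr was 0.51 (SE 0.14) and passed when every probe set was tested (limma adjusted p = 0.0338). The bright probe set's 0.63 (SE 0.46) has the same sign and a wider error.

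Of the Wnt ligands, 12 of 19 could be tested and 1 was called. Wnt2, a canonical Wnt that promotes dendrite growth in rodent neurons, had intensities of 85.9, 65.7 and 82.4 in BNST, 197, 184 and 128 in NAc and 146, 147 and 155 in dStr. All BNST arrays lay below all others, and NAc and dStr overlapped. The means were 78.0 ± 10.8 in BNST, 169.8 ± 36.8 in NAc and 149.6 ± 5.14 in dStr (SD, n = 3 each).

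The difference of Wnt2 was −0.97 (SE 0.17) in BNST against NAc, 1.96-fold (limma adjusted p = 0.0158), and −0.82 (SE 0.17) in BNST against dStr, 1.77-fold (adjusted p = 0.00845). The call against dStr was kept under all 21 alternatives. The call against NAc was lost without BNST 2 (0.0696), BNST 3 (0.0648) or NAc 2 (0.0796), and with the arrays of the pair alone (0.0902). The promoter of Wnt2 is shown because this was the called Wnt ligand, and it lies at chr6:18030396-18030695 on the minus strand, with GC boxes in capitals.
Wnt2: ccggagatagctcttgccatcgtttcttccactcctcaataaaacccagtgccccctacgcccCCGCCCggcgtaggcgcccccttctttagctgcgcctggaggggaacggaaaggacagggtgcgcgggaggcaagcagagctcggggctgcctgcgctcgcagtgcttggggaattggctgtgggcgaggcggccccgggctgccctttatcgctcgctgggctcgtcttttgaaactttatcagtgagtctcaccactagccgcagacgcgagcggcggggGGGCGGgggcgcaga
It held 2 GC boxes, 27 CpG dinucleotides and none of the other 4 motifs.

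The brightest other Wnt probe sets gave no call. Wnt7a, a Wnt of synapse assembly and brain vessels, read 403, 429 and 461 in BNST, 414, 386 and 420.05 in NAc and 393, 481 and 362 in dStr. Wnt6 read 287, 286 and 247 in BNST, 319.7, 286 and 283 in NAc and 306, 299.5 and 349 in dStr. Wnt3a, the Wnt of the developing hippocampal margin, read 305, 276 and 287 in BNST, 288, 259.5 and 330.4 in NAc and 245, 222 and 252 in dStr.

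None of these 3 passed, with differences between −0.21 and 0.27, although the Wnt3a arrays of dStr lay below all others and the Wnt6 arrays of BNST lay below those of dStr. The dim probe set of Wnt7a departed from the bright one, with 96.1, 94.8 and 106 in BNST, 155, 142 and 158 in NAc and 115, 125 and 105 in dStr. NAc lay above the others there, and the difference of −0.54 in BNST against NAc missed the threshold when every probe set was tested (limma adjusted p = 0.0594). Wnt4, Wnt7b, Wnt8a, Wnt8b, Wnt9a, Wnt9b, Wnt10a and Wnt11 did not pass in any comparison, with differences between −0.51 and 0.18.

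Of the Frizzled receptors, 9 of 11 were tested and 0 passed between any pair of regions. Fzd8 passed in the F test (adjusted p = 0.0437), with 105, 99.0 and 116 in BNST, 36.3, 80.9 and 68.6 in NAc and 195, 117 and 122 in dStr. The regions did not overlap, NAc being lowest and dStr highest. BNST and dStr nearly met, with BNST 3 at 115.97 and dStr 2 at 116.51, and their difference of −0.36 did not pass (limma adjusted p = 0.372). Its difference of −1.06 (SE 0.24) in NAc against dStr missed the threshold (limma adjusted p = 0.0581), and the F call was absent when BNST 2, BNST 3, NAc 1, NAc 3 or any 1 dStr array was left out.

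Fzd1 read 409.6, 367 and 499 in BNST, 322, 285 and 405 in NAc and 253, 249 and 336 in dStr, with a difference of 0.58 (SE 0.18) in BNST against dStr that missed the threshold (limma adjusted p = 0.0574) without overlap of the arrays. The other probe set of Fzd1 above the filter differed by 0.04 in BNST against dStr (limma adjusted p = 0.947). Fzd3, a receptor for axon guidance, read 875, 755 and 810.1 in BNST, 1220.2, 1169 and 680.2 in NAc and 1024, 1044 and 999.5 in dStr, and did not pass. Fzd2 read 245, 208 and 219 in BNST, 298, 276 and 234 in NAc and 273, 235 and 347 in dStr, and did not pass. Fzd4, Fzd5, Fzd6, Fzd10 and Fzd10os did not pass either.

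The secreted Wnt antagonists gave no call at the level of genes. Sfrp1 read 218, 295 and 272 in BNST, 417, 351 and 263 in NAc and 403, 295 and 471 in dStr. Sfrp4 read 346, 355 and 395 in BNST, 390.5, 389 and 371 in NAc and 486, 457 and 409.8 in dStr. For both, BNST and dStr did not overlap, by less than 1 unit for Sfrp1, BNST being lower by 0.53 and 0.29 on the log2 scale, and neither passed (limma adjusted p = 0.125 and 0.149). The other 2 probe sets of Sfrp1 above the filter ran the opposite way, by 0.44 and 0.29, without passing (adjusted p = 0.173 and 0.629).

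Sfrp5 read 321, 403 and 411 in BNST, 394, 342 and 361 in NAc and 347, 298 and 374 in dStr, and overlapped throughout. Dkk4 read 104, 103 and 99.9 in BNST, 138, 93.1 and 77.0 in NAc and 103, 99.9 and 107 in dStr, without a difference past the threshold.

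Dkk3, a divergent Dickkopf protein found in many neurons, read 227, 142 and 201 in BNST, 433, 262 and 282 in NAc and 322, 247 and 322 in dStr. All BNST arrays lay below the others, and the difference in BNST against dStr was −0.62 (SE 0.22, limma adjusted p = 0.0946). Its other probe set read 93.8, 70.3 and 73.1 in BNST, 163, 184 and 164 in NAc and 277, 228 and 272 in dStr, with no overlap between any regions. It passed when every probe set was tested, with −0.98 in BNST against NAc (adjusted p = 0.0102) and −1.54 in BNST against dStr (adjusted p = 0.000195).

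**Figure D3:**
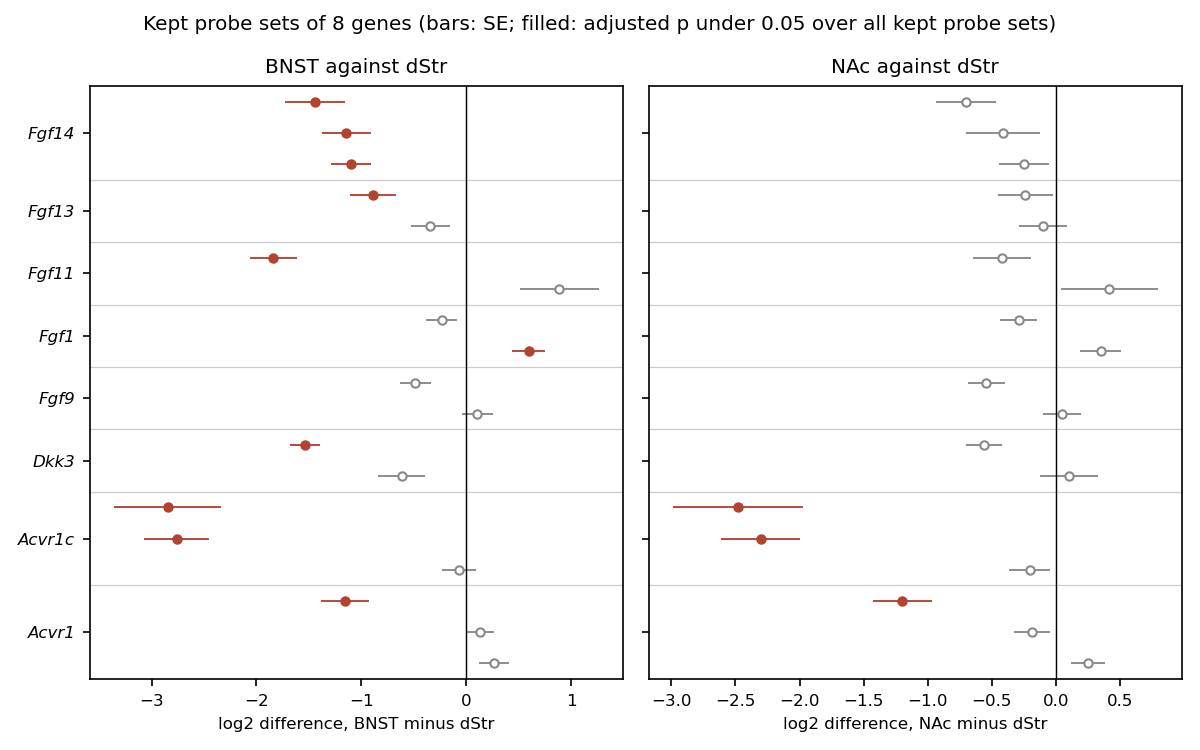
Log2 differences, BNST minus dStr and NAc minus dStr, of each probe set above the filter of 8 genes, with standard errors as bars and filled points where the adjusted p over all 29293 such probe sets was under 0.05. The 3 probe sets of Fgf14 lie together left of 0, while those of Fgf11, Fgf1, Fgf9 and Acvr1 lie on both sides of 0 between BNST and dStr.

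Of the BMP genes, 10 of 11 were tested and Bmp2, a BMP ligand, was called. It read 53.9, 41.7 and 53.2 in BNST, 71.0, 87.4 and 70.3 in NAc and 81.9, 111 and 85.7 in dStr. The BNST arrays were the lowest, and NAc and dStr overlapped. The difference was −0.73 (SE 0.15) in BNST against dStr, 1.66-fold (limma adjusted p = 0.00976), and −0.49 in BNST against NAc (adjusted p = 0.151).

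Bmp2 was dim, with no BNST array, 1 NAc array and all 3 dStr arrays above their 40th percentile, and the filter at the 60th percentile removed it. Under the other 20 alternatives the call was kept. Bmp1 read 251, 237 and 213 in BNST, 226, 192 and 169 in NAc and 261, 195 and 219.7 in dStr. Bmp7, a BMP ligand made by meninges and choroid plexus, read 223, 194 and 175 in BNST, 198, 183 and 189 in NAc and 185, 177 and 173 in dStr.

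Bmp8a read 178, 184 and 188 in BNST, 211, 200.2 and 199 in NAc and 159, 203 and 226 in dStr. These 3 did not pass in any comparison. Bmp4, an inhibitor of oligodendrocyte formation, read 78.7, 63.9 and 90.0 in BNST, 56.9, 61.0 and 58.4 in NAc and 147, 78.2 and 97.2 in dStr. NAc lay below the others without overlap, and the difference of −0.68 in NAc against dStr did not pass (limma adjusted p = 0.134). Bmp2k, Bmp5, Bmp6, Bmp8b and Bmp15 did not pass either.

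Among the activin and BMP receptors, all 5 were tested, and the type I receptors Acvr1c and Acvr1 were lower in both BNST and NAc than in dStr. Acvr1c, the receptor ALK7 for Nodal and some activins, read 71.0, 28.4 and 44.3 in BNST, 184, 56.2 and 18.7 in NAc and 428, 380.01 and 477 in dStr. All dStr arrays lay above the others, and the NAc arrays scattered widely below them and enclosed the BNST arrays. The mean was 47.9 ± 21.5 in BNST, 86.3 ± 86.8 in NAc and 429 ± 48.7 in dStr (SD, n = 3 each).

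The difference of Acvr1c was −2.85 (SE 0.50) in BNST against dStr, 7.20-fold (limma adjusted p = 0.00421), and was called under all 21 alternatives. In NAc against dStr it was −2.48 (SE 0.50), 5.58-fold (adjusted p = 0.033), and this call was lost under 9 alternatives, among them leaving out BNST 3, NAc 2, NAc 3, dStr 1, dStr 2 or dStr 3 (0.0608 to 0.15). No BNST array and 1 NAc array exceeded the 40th percentile of its array.

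A dimmer probe set of Acvr1c gave the same order, with 28.3, 15 and 15 in BNST, 62.3, 29.6 and 15 in NAc and 193, 196 and 283 in dStr. It was lower by 2.76 in BNST and by 2.30 in NAc than in dStr (limma adjusted p = 0.000449 and 0.00614). No BNST or NAc array and all 3 dStr arrays exceeded the filter's percentile, so this probe set entered the test through dStr. With 2 BNST arrays and 1 NAc array at the lowest value, the sizes of these differences depend on that value. The third probe set lay between 78.2 and 121 on all arrays and did not pass. The promoter of Acvr1c, shown because the gene was called lower in both BNST and NAc than in dStr, lies at chr2:58357709-58358008 on the minus strand and is the first of 2 that RefSeq lists.
Acvr1c: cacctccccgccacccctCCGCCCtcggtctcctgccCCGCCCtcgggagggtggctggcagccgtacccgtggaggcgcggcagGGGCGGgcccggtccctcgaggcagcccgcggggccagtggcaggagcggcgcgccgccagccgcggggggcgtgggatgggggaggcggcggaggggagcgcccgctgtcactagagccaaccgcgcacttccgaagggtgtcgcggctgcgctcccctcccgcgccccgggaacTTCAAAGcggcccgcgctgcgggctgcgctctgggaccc
Its capitals mark 3 GC boxes and 1 TCF/LEF core read on the opposite strand, at bases 262 to 268 counted from 1 at the 5′ end. The core was found in 7 of the 68 promoters of members. The window held 39 CpG dinucleotides and 79% G or C.

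Acvr1, the BMP receptor ALK2, read 158, 72.9 and 118 in BNST, 97.7, 138 and 92.5 in NAc and 252, 268 and 285 in dStr. All dStr arrays lay above the others, and BNST and NAc overlapped. The difference was −1.16 (SE 0.23) in BNST against dStr, 2.23-fold (limma adjusted p = 0.00784), and −1.20 (SE 0.23) in NAc against dStr, 2.29-fold (adjusted p = 0.0251). The second call was lost without BNST 3 (0.0539), NAc 3 (0.0888), dStr 1 (0.0962), dStr 2 (0.0977) or dStr 3 (0.125).

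The other 2 probe sets of Acvr1 did not show it. They were higher in BNST than in dStr by 0.26 and 0.13 without passing (limma adjusted p = 0.253 and 0.554). With the mean of the 3 probe sets neither Acvr1 call passed (adjusted p = 0.256 in BNST against dStr and 0.246 in NAc against dStr).

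Acvr1b, the activin receptor ALK4, read 1111, 639 and 933 in BNST, 581, 955 and 1033 in NAc and 906, 1103 and 1191 in dStr. Acvr2b read 395, 475 and 495 in BNST, 326, 528 and 423 in NAc and 546, 590.1 and 409 in dStr. Acvr2a read 239, 163 and 177 in BNST, 207, 482 and 344 in NAc and 167, 212 and 179 in dStr. None of them passed, though NAc 2 and NAc 3 were the highest arrays for Acvr2a, with a difference of 0.76 in NAc against dStr (limma adjusted p = 0.218).

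The remaining 20 genes, with 28 probe sets, did not reach the filter: Bmp10, Dkk1, Dkk2, Fgf2, Fgf6, Fgf7, Fgf17, Fgf18, Fgf21, Fgf23, Fzd7, Fzd9, Sfrp2, Wnt1, Wnt2b, Wnt3, Wnt5a, Wnt5b, Wnt10b and Wnt16. Their highest value on any array was 126, for Fzd7 in BNST, and 19 of them never exceeded 100. Wnt3 stood at the lowest value on all 9 arrays. A dim probe set does not show that a gene is silent.

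With no filter, 18193 genes were tested, and 2 of the 20 passed. Among the 14208 genes above the filter, 14.3% passed in BNST against dStr and 2.05% in NAc against dStr. Those shares come from another fit of brighter genes and are not a like background for the 2 of 20. Dkk2, an antagonist of Lrp5 and Lrp6, read 15, 15 and 15 in BNST, 15, 17.1 and 16.7 in NAc and 30.0, 44.0 and 57.6 in dStr. All 3 BNST arrays were at the lowest value and all dStr arrays above every other one. Its fitted difference was −0.92 in BNST against dStr (limma adjusted p = 0.00786) and −0.87 in NAc against dStr (adjusted p = 0.0406), neither of which is a bound. Fzd9 read 68.4, 70.9 and 86.9 in BNST, 65.0, 57.2 and 57.3 in NAc and 50.2, 44.3 and 39.6 in dStr, with a difference of 0.59 in BNST against dStr (adjusted p = 0.015).

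Other genes of the 3 pathways were read from 5 lists that leave out the members. Their counts are to be read beside the shares of all genes, 4.94% higher and 9.33% lower in BNST than in dStr, 0.76% higher and 1.48% lower in BNST than in NAc, and 0.95% higher and 1.1% lower in NAc than in dStr. Of 31 tested FGF partners, adaptors and feedback genes, 3 were higher and 4 lower in BNST than in dStr, 1 was lower in BNST than in NAc, and 1 was higher and 1 lower in NAc than in dStr. Spry2, a feedback inhibitor that FGF signalling induces, read 186, 108 and 151 in BNST, 194, 231 and 197 in NAc and 591, 494 and 592 in dStr. All dStr arrays lay above the others, and BNST lay below NAc. The difference was −1.83 (SE 0.18) in BNST against dStr (limma adjusted p = 0.000165) and −1.37 (SE 0.18) in NAc against dStr (adjusted p = 0.00382).

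Sulf1, an enzyme that strips sulfate from heparan sulfate, ran the opposite way. It read 221, 132 and 178 in BNST, 208, 182 and 133 in NAc and 28.4, 37.0 and 26.1 in dStr, so that dStr was lowest without overlap. The difference was 2.03 (SE 0.21) in BNST and 2.02 (SE 0.21) in NAc against dStr (limma adjusted p = 0.000177 and 0.00123). Its relative Sulf2 read 649, 578 and 842 in BNST, 235, 375 and 499.6 in NAc and 152, 271 and 264 in dStr, and was higher in BNST than in dStr by 1.55 (adjusted p = 0.0052).

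Flrt3, a membrane protein that binds FGF receptors, read 434, 228 and 332 in BNST, 1110.5, 914 and 625 in NAc and 876, 850.4 and 826 in dStr. BNST was lowest without overlap, by 1.38 against NAc (limma adjusted p = 0.0179) and by 1.36 against dStr (adjusted p = 0.00448). The call against NAc was lost without BNST 2 (0.0601), BNST 3 (0.0795) or NAc 2 (0.0851). Flrt1 and the adaptor Frs3 were lower in BNST than in dStr by 0.55 and 0.63 (adjusted p = 0.0204 and 0.0381), and the glypican Gpc4 was higher by 0.46 (adjusted p = 0.0375). Without single arrays these calls were lost, Flrt1 without BNST 2, BNST 3 or any 1 dStr array (0.0548 to 0.1005), Frs3 and Gpc4 without any 1 BNST or dStr array or without NAc 2 (0.0518 to 0.134 for Frs3 and 0.0538 to 0.118 for Gpc4). The Gpc4 call was also lost with the mean of its probe sets (limma adjusted p = 0.284). Quantile normalisation removed the calls of Frs3 (0.242) and Flrt1.

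Of 18 tested Wnt receptors, secretion factors and extracellular regulators, 1 was higher and 2 lower in BNST than in dStr, and 1 was lower in NAc than in dStr. The Wnt co-receptors went apart. Lrp5 read 245, 303 and 267 in BNST, 113, 149.7 and 167 in NAc and 67.1, 82.2 and 180.04 in dStr, higher in BNST than in dStr by 1.29 (limma adjusted p = 0.0119). Lrp6 read 256, 142 and 108 in BNST, 219, 275 and 256 in NAc and 458, 296 and 339.7 in dStr, lower by 1.10 (adjusted p = 0.0201).

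For neither gene did the BNST and dStr arrays overlap, and both calls were lost without BNST 2, at 0.0514 for Lrp5 and 0.0777 for Lrp6, or without dStr 1, at 0.0535 and 0.0914. Lrp5 was also lost without dStr 2 (0.0514), and Lrp6 without BNST 3 (0.0857) or dStr 3 (0.0589). Rspo1, a secreted amplifier of Wnt signals, read 124, 69.0 and 64.3 in BNST, 38.4, 43.7 and 48.0 in NAc and 250.2, 127 and 186 in dStr. NAc was lowest and dStr highest without overlap, with differences of −1.74 in NAc against dStr (limma adjusted p = 0.00669) and a 2.01-fold lower level in BNST than in dStr (adjusted p = 0.0248), the call in BNST against dStr being lost without BNST 2 (0.0961), BNST 3 (0.112), dStr 1 (0.103) or dStr 3 (0.0828).

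Of 36 tested intracellular Wnt genes and targets, 2 were higher and 2 lower in BNST than in dStr, and none passed in the other comparisons. Dact1, a Dishevelled-binding regulator, read 208, 154 and 171 in BNST, 86.1, 101 and 142 in NAc and 66.9, 67.6 and 66.9 in dStr. The 3 regions did not overlap, and the difference was 1.21 (SE 0.17) in BNST against dStr (limma adjusted p = 0.00132). Ccnd1, the cell-cycle gene cyclin D1 and a Wnt target, was higher by 0.63 (adjusted p = 0.00767), and the co-repressor Tle4 was lower by 0.98 (adjusted p = 0.0213). The Tle4 call was lost without BNST 2, BNST 3, dStr 2 or dStr 3 (0.071 to 0.088), and the Ccnd1 call with the mean of its probe sets (0.249).

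Of 32 tested BMP and activin receptors, ligands and antagonists outside the members, 5 were higher and 2 lower in BNST than in dStr (4.94% and 9.33% of all genes), and none passed in the other comparisons. Inhba, the subunit of activin A, read 243, 251 and 260.5 in BNST, 357, 294 and 294 in NAc and 398, 514 and 501 in dStr. The 3 regions did not overlap, and the difference was −0.86 (SE 0.14) in BNST against dStr (limma adjusted p = 0.00298). Fst, the activin antagonist follistatin, was lower by 0.60 in BNST than in dStr (adjusted p = 0.0331), a call lost without BNST 2, BNST 3 or any 1 dStr array (0.0602 to 0.129).

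The 5 higher ones were the ligand Tgfb2 by 0.90, the decoy receptor Bambi by 0.50, the BMP co-receptors Rgma by 0.76 and Rgmb by 1.03, and Fstl5 by 0.81. Their limma adjusted p-values lay between 0.00219 and 0.0262. The Tgfb2 call was lost with the mean of its probe sets (0.0774) and under no left-out array. The other 4 calls were lost without BNST 2 (0.057 to 0.0777), BNST 3 (0.0529 to 0.114) or dStr 3 (0.0564 to 0.109), those of Rgmb and Fstl5 also without dStr 1, and those of Bambi, Rgma and Rgmb also without dStr 2. The Rgmb call was also lost with the mean of its probe sets.

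Of 25 tested intracellular BMP and activin genes, 0 were higher and 3 lower in BNST than in dStr, and none passed in the other comparisons. Skil, a repressor of Smad complexes that activin and TGF-beta induce, read 477, 234 and 292 in BNST, 561, 711 and 489 in NAc and 1094, 1263 and 1264 in dStr. The 3 regions did not overlap, and the difference was −1.86 (SE 0.23) in BNST against dStr (limma adjusted p = 0.000636) and −1.03 in NAc against dStr (adjusted p = 0.056). Smad4, the common partner of the Smads, was lower by 0.99 (adjusted p = 0.00897) and the inhibitory Smad7 by 1.09 (adjusted p = 0.0341), the last lost without any 1 of BNST 2, BNST 3, dStr 1, dStr 2 or dStr 3 (0.0503 to 0.136).

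**Figure D4:**
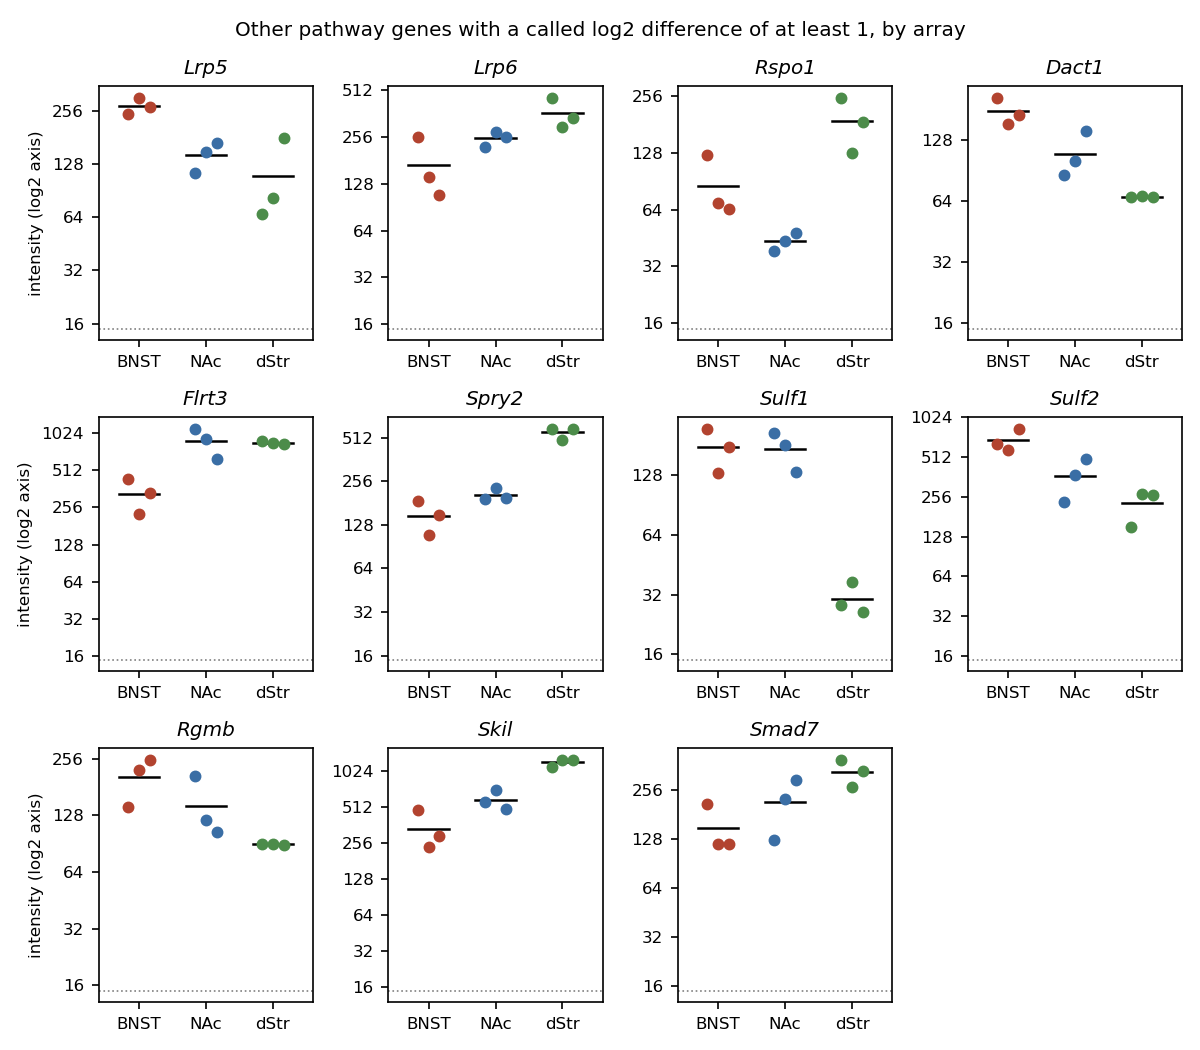
Intensity on a log2 axis of 11 other pathway genes with a called difference of at least 1 on the log2 scale, with 1 point per array, lines at the mean of 3 arrays per region and a dotted line at the lowest value of 15. Among them, Spry2, Skil, Lrp6 and Rspo1 have all 3 dStr arrays above the other 6, and Sulf1 and Dact1 have them below.

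The median differences of the 5 lists in BNST against dStr were −0.20 for the FGF list, −0.01 and −0.16 for the extracellular and intracellular Wnt lists, and 0.04 and −0.17 for the extracellular and intracellular BMP lists, against −0.06 for all genes. The lists' calls went in both directions except in the intracellular BMP list. As for the members, a call in BNST against dStr shares its direction with some marker lists, and the part of the marked cells was not tested. In NAc against dStr, 2 of 8 projection neuron markers were lower and 2 of 4 BNST neuropeptides higher (median differences of −1.12 and 2.11). No astrocyte, ependymal or thalamic marker was called there (median differences of 0.05, 0.03 and 0.28).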

How the data were processed

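The deposited table holds 1 intensity per probe set and array on a linear scale, as deposited by the authors. Per the labels' protocols, 10 ng of Stat-60 total RNA went into a labelling with repeated amplification. How the probes were summarised and scaled is not given in the sources used here. Symbols came from the platform annotation, which gave 34945 probe sets 1 symbol, 932 several and 9160 none.

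Values were tested as log2(value + 16) with limma 3.58.1 in R 4.3.3, in a single linear model of the 9 arrays (3 region means, 6 residual degrees of freedom). The filter kept 29293 probe sets, 93 of them of members. The kept probe set with the highest mean represented each gene, and 24 of the 60 tested members had several. Tests were 2-sided and adjusted by Benjamini-Hochberg.

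The members and lists were chosen with earlier results of these data known. Values in every array are given for members that passed a test, for up to 3 per family with the highest mean, and for Fgf20. Of the lists, at most 5 passing genes per comparison and direction are named, and only where arrays did not overlap. Fgf12, Fgf16, Bmp4, Dkk2, Fzd9 and the further probe sets were added after their values were seen. Simulated data with known changes were used to test the procedure.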

Additional observations from a re-analysis of the deposited data

How the results depend on the processing

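Alternatives were quantile normalisation, centred array medians, filters removed or raised to the 60th percentile, averaged probe sets, a fit over all probe sets, a robust prior with a trend, a replicate block, pseudocounts of 1 and 64, each array left out, BNST 1 and NAc 1 both left out, the arrays of the pair alone and a minimum difference. Leaving aside the minimum difference, 6 of 15 member calls were kept under each alternative in which the gene was tested, which for Bmp2 leaves out the 60th percentile filter, and none reversed. So were 11 of 27 calls of list genes, each tested under 19 or 20 alternatives, none reversing. Leaving out 1 array gave 0 to 4 members in BNST against NAc (2 with all arrays), 7 to 12 in BNST against dStr (10), 1 to 4 in NAc against dStr (3) and 5 to 12 in the F test (8). None passed in BNST against NAc without BNST 3 or without NAc 2, and Fgf20 alone passed in NAc against dStr without BNST 3, NAc 3 or any 1 dStr array. Without both BNST 1 and NAc 1 the counts were 5, 16 and 6, and 15 in the F test, with more calls among all genes too. A minimum difference of 1 on the log2 scale left 1 member in BNST against NAc and 5 in BNST against dStr, and the arrays of the pair alone left 0 in BNST against NAc. The cause was not tested. Arrays of the same replicate number were not more alike. Their deviations from the region means correlated at −0.51 to 0.26 (9 pairs), and those of arrays with different numbers at −0.34 to 0.42 (18 pairs). With 3 arrays per region, this cannot show whether samples of the same number shared an animal. With the replicate block 2, 9 and 2 members passed, and 6 in the F test. Except for the setting without BNST 1 and NAc 1, shares of all genes are not given for these alternatives. A changed count is therefore not read as particular to the members. With the mean of probe sets, the calls for Acvr1, Fgf11, Fgf1 and Fgf9 were lost and Dkk3 passed.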
